A study of Mus musculus with 6 samples.

Results

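The 9 genes described here, Gfap, Aqp4, Aldh1l1, Gja1, Gjb6, Aldoc, S100b, Sox9 and Fgfr3, are widely used as markers of astrocytes. They were found by exact symbol in the deposited gene table, each in 1 row, and are 9 of its 35406 rows. The table comes from RNA sequencing of the nucleus accumbens, a dopamine-innervated region of the ventral striatum that takes part in reward and in the response to cocaine, in male C57BL/6 mice aged 11 weeks. The control mice received repeated intraperitoneal injections of saline for 1 week, and the treated mice received cocaine at 20 mg/kg by the same route for 1 week. Tissue was examined 24 h into withdrawal in both groups. For each of 3 pools per group, tissue of 5 mice was combined from both sides of the brain, which makes 15 mice per group. All mice of a cage received the same treatment, so cage and treatment cannot be told apart.

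The table holds 1 value per gene and group, in FPKM (fragments corrected for transcript length and for sequencing depth), and no value per pool. The spread between pools is therefore not known, and neither is the depth of the libraries. The test is the authors' own. A gene is called changed here at an authors' q (their adjusted p) under 0.05. Where genes of a list are counted as having risen or fallen, only called genes are counted. The authors' own mark is wider. It covers 3436 rows, with q up to 0.0999. The error given with each log2 ratio of cocaine over saline is the standard error implied by the authors' test statistic, and whether it holds the spread between pools is not stated.

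Astrocytes are the glial cells that take up transmitter and potassium at synapses, pass metabolites to neurons and cover blood vessels with their end feet. Their identity is set in development by transcription factors such as Sox9 and the nuclear factor I family, and fibroblast growth factor (FGF) signalling helps to keep mature astrocytes in a resting state. After injury or strong stimulation they can become reactive, of which more Gfap is the best known sign. In the accumbens, their glutamate uptake is a much studied target of repeated cocaine.

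Of the 9 genes, 2 were called and 7 were not. In the authors' deposited table Fgfr3, the FGF receptor typical of astrocytes, rose from 38.0 FPKM after saline to 59.8 FPKM after cocaine, and the transcription factor gene Sox9 fell from 23 to 15.1 FPKM. The structural, channel and metabolic markers Gfap, S100b, Aqp4, Gja1, Gjb6, Aldh1l1 and Aldoc had log2 ratios between -0.25 and 0.17. The called members make 22.2% of the 9, and 11.9% of all 23479 rows with test status OK were called, 6.1% higher and 5.76% lower. Genes at least as abundant as the lowest of the 9 were called more often, at 21.2% of 7111, so the members' share is near that of genes of like abundance. The median log2 ratio of the 9 genes was -0.10, and that of the 14193 gene symbols with a mean of at least 1 FPKM was 0.04. Of those symbols 14.6% were called, 7.46% higher and 7.18% lower.

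RefSeq windows of 250 bases before to 50 bases after a gene's start (build GRCm38.p6) were on hand for 7 of the 9 genes, with 9 start sites. Sox9 and Aqp4 are not among the 7. The windows of Fgfr3 are shown because that gene rose, and those of Gfap and S100b as examples of windows with matches to motifs of transcription factor families with called members below. The windows of Aldoc, which hold such matches too, are not shown. Each is given 5′ to 3′ on the gene's own strand, with motif matches in capitals.
Fgfr3, first start, chr5:33721474-33721773, plus strand: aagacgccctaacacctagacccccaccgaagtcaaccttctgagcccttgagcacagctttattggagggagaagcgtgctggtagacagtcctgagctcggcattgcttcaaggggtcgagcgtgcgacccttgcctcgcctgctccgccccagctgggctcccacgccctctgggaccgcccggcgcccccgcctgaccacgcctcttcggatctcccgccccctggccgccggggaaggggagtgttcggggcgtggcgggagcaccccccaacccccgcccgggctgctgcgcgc
Fgfr3, second start, chr5:33722056-33722355, plus strand: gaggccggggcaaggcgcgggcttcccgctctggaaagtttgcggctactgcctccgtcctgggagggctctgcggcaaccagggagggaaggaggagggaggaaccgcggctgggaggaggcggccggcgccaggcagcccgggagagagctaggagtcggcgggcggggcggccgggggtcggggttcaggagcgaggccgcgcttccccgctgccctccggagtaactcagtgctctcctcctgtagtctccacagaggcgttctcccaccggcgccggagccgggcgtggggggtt
Gfap, chr11:102897151-102897450, minus strand: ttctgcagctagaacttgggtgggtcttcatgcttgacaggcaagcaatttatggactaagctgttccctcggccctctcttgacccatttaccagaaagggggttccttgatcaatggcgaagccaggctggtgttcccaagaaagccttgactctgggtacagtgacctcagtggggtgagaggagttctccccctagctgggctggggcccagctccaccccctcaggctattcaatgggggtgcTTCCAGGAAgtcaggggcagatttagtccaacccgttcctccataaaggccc
S100b, chr10:76253586-76253885, plus strand: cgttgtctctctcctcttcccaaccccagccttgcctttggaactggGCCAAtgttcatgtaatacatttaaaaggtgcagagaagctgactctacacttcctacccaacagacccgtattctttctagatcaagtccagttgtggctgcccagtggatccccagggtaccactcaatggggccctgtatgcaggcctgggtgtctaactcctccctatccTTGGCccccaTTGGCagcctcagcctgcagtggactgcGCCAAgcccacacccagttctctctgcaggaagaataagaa

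Motifs were searched by letters on both strands in all 32851 windows. The SOX core ACAAAG was in 18.7% of all windows and the core ACAATG in 12.6%, and neither was in any of the 9 windows of the astrocyte genes. The STAT motif TTCNNNGAA, in 8.3% of all windows, was found once in the window of Gfap, as TTCCAGGAA from position -2 relative to the start, and at 2 positions in the second window of Aldoc. The nuclear factor I core TTGGC, in 46.7% of all windows, was found at 4 positions of the S100b window and once in the first window of Aldoc. The full palindromic nuclear factor I site, which contains that core on both strands, was in 12 of all windows and in none of these 9. Both Fgfr3 windows hold no capitals and are rich in G and C, at 69.7% and 73.0%, against a median of 52.7% for all windows. These matches describe letters in short windows and do not show binding.

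**Figure D1:**
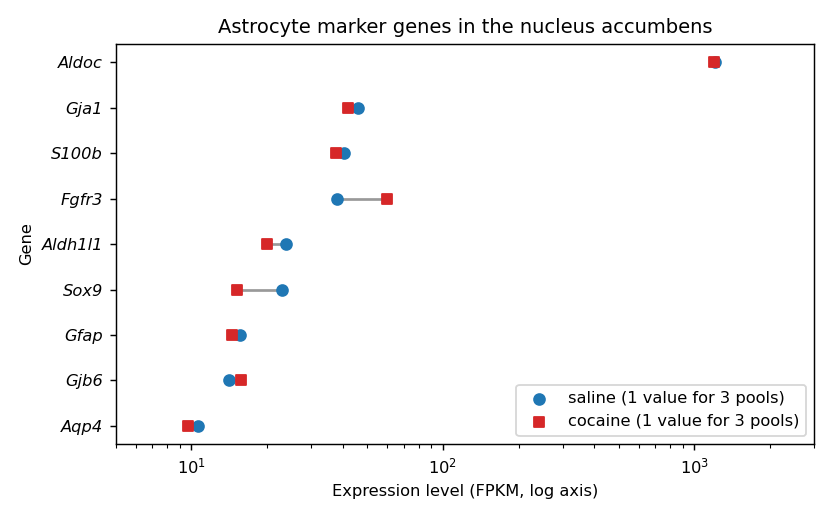
Expression level of the 9 astrocyte marker genes in FPKM on a log axis, with the saline value as a circle and the cocaine value as a square, each 1 value for 3 pools. Aldoc lies far above the rest at 1212.3 and 1198.5 FPKM, and the widest gaps between the groups are those of Fgfr3 (38.0 and 59.8) and Sox9 (23 and 15.1).

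The levels of the 9 genes, which FPKM scales to transcript length, spanned from 10.7 FPKM for Aqp4 to 1212.3 FPKM for Aldoc after saline and from 9.71 to 1198.5 FPKM after cocaine for the same genes. Aldoc was 18th among the 14193 genes by its saline level. Below it, the saline order was Gja1 (45.9 FPKM), S100b (40.3 FPKM), Fgfr3 (38.0 FPKM), Aldh1l1 (23.8 FPKM), Sox9 (23 FPKM), Gfap (15.6 FPKM), Gjb6 (14 FPKM) and Aqp4. After cocaine Fgfr3 stood second and Gjb6 sixth, ahead of Sox9 in seventh place and Gfap in eighth. With no value per pool, it cannot be said which neighbours in this order differ beyond the spread between pools. Summed over the 9 genes the level was 1423.5 FPKM after saline and 1412.7 FPKM after cocaine, and without Aldoc it was 211 and 214 FPKM. In tissue of mixed cells, a change in the number of astrocytes and a change in RNA per astrocyte cannot be told apart.

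Gfap encodes the intermediate filament protein of astrocytes. It had 15.6 FPKM after saline and 14.5 FPKM after cocaine, a log2 ratio of -0.10 ± 0.13 that was not called (q = 0.802 in the authors' deposited table). The 95% interval from the implied error ran from 0.775-fold to 1.12-fold. Its locus in the authors' build (mm9, chr11:102699787-102962972) holds 10 rows of the table, and none of the other 9 was called. The most abundant of these, the splicing GTPase gene Eftud2, had 135 and 138 FPKM. Vim, which encodes the other main filament protein of reactive astrocytes, had 25.5 and 26.1 FPKM, and Nes, a filament gene of neural progenitors, had 1.02 and 1.21 FPKM. Of 8 filament genes of glia and neurons with a mean of at least 1 FPKM, 0 were called, against 14.6% of the 14193 genes. In the authors' Cuffdiff test 1 of the 8 had an unadjusted p under 0.05. That was the neurofilament gene Nefm, at 31.1 and 37.2 FPKM (q = 0.0871 in the authors' deposited table, within the authors' own mark). The most abundant of the list, the neurofilament gene Nefl, had 46.2 and 52.3 FPKM.

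S100b encodes a calcium-binding protein that astrocytes also release. It had 40.3 FPKM after saline and 37.5 FPKM after cocaine, with a log2 ratio of -0.10 ± 0.12 (q = 0.76 in the authors' deposited table). It shares its locus (mm9, chr10:75716598-75808036) with 2 other rows, one of them Dip2a at 23.2 and 23 FPKM. Its relative S100a1, at 157 and 146 FPKM, was more abundant, and S100a6 had 5.34 and 5.38 FPKM. Of 9 S100 list genes with a mean of at least 1 FPKM, 0 were called, against 14.6% of the 14193 genes. In the authors' Cuffdiff test 2, S100a16 and S100a10, had an unadjusted p under 0.05. S100a16 (q = 0.0619 in the authors' deposited table) is within the authors' own mark. Below that mean, S100g was called higher, listed at 0 after saline and at 0.0821 FPKM after cocaine. The median log2 ratio of these 9 was -0.10.

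Aqp4 encodes the water channel of the end feet. It had 10.7 FPKM after saline and 9.71 FPKM after cocaine, a log2 ratio of -0.13 ± 0.14 (q = 0.718 in the authors' deposited table), and was alone in its locus. The list of water, potassium and dystrophin complex genes at the vessel surface, which includes Aqp4, had 16 genes with a mean of at least 1 FPKM. Of these 5 were called lower and 0 higher, against 7.18% of the 14193 genes called lower and 7.46% called higher. Dtna, which encodes the dystrophin partner dystrobrevin alpha, had 45.7 FPKM after saline and fell to 30.6 FPKM (log2 ratio -0.58 ± 0.07, q = 9.73e-14 per the authors' deposited table). The bicarbonate transporter gene Slc4a4 fell from 47.0 to 34.9 FPKM, the dystroglycan gene Dag1 from 25.4 to 19.3 FPKM, the utrophin gene Utrn from 22.2 to 17.6 FPKM and the basement membrane gene Agrn from 66.8 to 56.0 FPKM. Kcnj10, the potassium channel of astrocytes, had 21.4 and 19.4 FPKM and was not called (q = 0.538 in the authors' deposited table). The related dystrobrevin gene Dtnb, with 55.8 and 53.3 FPKM, was not called either. None of the 5 fell by 1.5-fold or more.

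Transcript length moved with that count. Genes were divided by the length of their longest transcript into 5 classes of nearly equal size. All 5 called genes belong to the longest class (5106 nt or more), which holds 8 of the 16. In that class, 21.6% of all genes were called lower and 3.84% higher, with a median log2 ratio of -0.13, and among its 1281 genes with a mean at least that of Aqp4, 30.3% were called lower. In the shortest class (up to 1404 nt) 1.52% were called lower and 9.68% higher, and the median log2 ratio was 0.16. The part of transcript length in the fall of the 5 genes was not tested.

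Gja1 and Gjb6 encode connexin 43 and connexin 30, which join astrocytes into networks through gap junctions. Gja1 had 45.9 FPKM after saline and 41.8 FPKM after cocaine, a log2 ratio of -0.14 ± 0.11 (q = 0.561 in the authors' deposited table). Gjb6 had 14 and 15.8 FPKM, a log2 ratio of 0.17 ± 0.21 (q = 0.795 in the authors' deposited table). These ratios differ in sign and neither was called, with 95% intervals of 0.782-fold to 1.06-fold for Gja1 and 0.841-fold to 1.5-fold for Gjb6. Gjb2, which encodes the third astrocyte connexin, was low at 0.575 and 0.549 FPKM. Gjb1, an oligodendrocyte connexin gene, had 7.88 and 7.15 FPKM. Of the 10 connexin, pannexin and scaffold genes with a mean of at least 1 FPKM, 0 were called, against 14.6% of the 14193 genes. Their log2 ratios ran from -0.15 to 0.23. None of the 10 had an unadjusted p under 0.05 in the authors' Cuffdiff test.

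Aldh1l1 encodes a folate enzyme and is often used to mark all astrocytes. It had 23.8 FPKM after saline and 20.0 FPKM after cocaine, with a log2 ratio of -0.25 ± 0.13. Its p of 0.0497 was the lowest of the 7 uncalled members, and its q of 0.235 missed the threshold in the authors' deposited table. It shares its locus with 1 row, the unnamed gene model Gm15756, at 0.160 and 0.153 FPKM. The mitochondrial relative Aldh1l2 had 1.34 and 0.884 FPKM. Of 23 aldehyde dehydrogenase and folate genes with a mean of at least 1 FPKM, 0 were called higher and 2 lower. The 8.70% called lower is near the 7.18% of all 14193 genes. By the sign of the log2 ratio alone, 9 were higher and 14 lower. Among the genes that fell was Aldh18a1, of proline synthesis, with 16.5 FPKM after saline and 9.43 FPKM after cocaine and a q value of 3.58e-06 per the authors' deposited table. The most abundant of the list, Aldh2, had 57.3 and 61.4 FPKM.

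Aldoc encodes aldolase C, the brain form of a glycolytic enzyme. Its 1212.3 FPKM after saline and 1198.5 FPKM after cocaine gave a log2 ratio of -0.02 ± 0.07 (q = 1.03 in the authors' deposited table, where q is not limited to 1). Its 95% interval, 0.903-fold to 1.08-fold, was the narrowest of the 9. Aldoa, the ubiquitous aldolase, had 999 and 1181.6 FPKM with a wide implied error (log2 ratio 0.24 ± 0.55). Of 24 glycolysis and lactate transport genes with a mean of at least 1 FPKM, 2 were called higher and 0 lower. The 8.33% called higher is near the 7.46% of all 14193 genes. The glucose transporter gene Slc2a1 rose from 29.4 to 43.3 FPKM (log2 ratio 0.56 ± 0.11, q = 3.99e-06) and the phosphoglycerate mutase gene Pgam1 from 50.5 to 65.9 FPKM (0.38 ± 0.11, q = 0.0069) per the authors' deposited table.

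**Figure D2:**
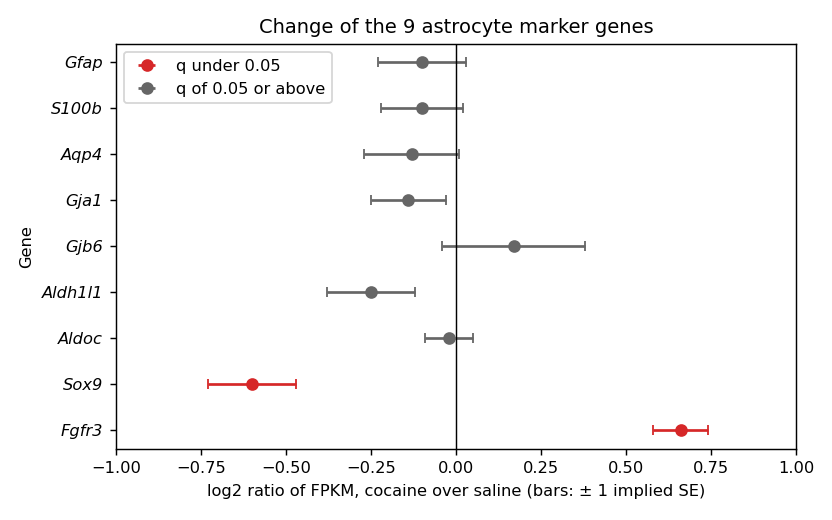
Log2 ratio of cocaine over saline FPKM for the 9 genes, ordered by role from filament and calcium-binding protein to transcription factor and receptor; bars are ± 1 standard error implied by the authors' test statistic. Fgfr3 (0.66 ± 0.08) and Sox9 (-0.60 ± 0.13), in red, are the called genes, and the 7 others lie between -0.25 and 0.17.

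Sox9 is a SOX family transcription factor that glial fate and the upkeep of astrocytes depend on. Its level was 23 FPKM after saline and 15.1 FPKM after cocaine, and the log2 ratio of -0.60 ± 0.13 was called lower (95% interval -0.86 to -0.35, q = 9.13e-05 in the authors' deposited table). The size of the fall was 34.1%, and 3.31% of the 14193 genes had a log2 ratio at or below that of Sox9. It was alone in its locus (mm9, chr11:112643524-112649071). Its longest transcript, of 4135 nt, lies in the second longest class, where the median log2 ratio was 0.00 and 7.56% of genes were called lower. Sox9 is also made by ependymal cells, whose regulator Foxj1 was near the lower limit at 1.39 and 1.15 FPKM (q = 0.548 in the authors' deposited table). The 12 ependymal and choroid plexus markers with a row summed to 16.1 FPKM after saline and 14.3 FPKM after cocaine, and none was at 0 in both groups. Of the 4 with a mean of at least 1 FPKM, 0 were called, against 14.6% of the 14193 genes. In the authors' Cuffdiff test 1, Kl, had an unadjusted p under 0.05. Below that mean, the choroid plexus transporter gene Slc4a5 was called lower at 0.312 and 0.0187 FPKM (q = 0.0229 per the authors' deposited table). Their part in the fall of Sox9 was not tested.

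The closest relatives of Sox9 did not pass the test. Sox8 had 29.0 and 26.8 FPKM (log2 ratio -0.12 ± 0.11) and Sox10, the oligodendrocyte factor, 14.7 and 12.8 FPKM (-0.20 ± 0.12) per the authors' deposited table. Whether the change of Sox9 differs from theirs was not tested. Among the 28 SOX and gliogenic transcription factor genes with a mean of at least 1 FPKM, 6 fell, 2 rose and 20 were not called, so that 28.6% were called against 14.6% of the 14193 genes. Their median log2 ratio was -0.03, with 14 genes higher and 14 lower.

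The lowest log2 ratio of this list was that of Zbtb20, a zinc finger factor that promotes astrocyte formation, which fell from 20.0 to 11.4 FPKM (-0.82 ± 0.12, q = 5.88e-10 per the authors' deposited table). Stat3, which drives reactive astrocyte genes including Gfap, fell from 50.8 to 34.3 FPKM (-0.57 ± 0.11, q = 5.7e-06 per the authors' deposited table). The nuclear factor I genes Nfic (29.9 to 20.4 FPKM) and Nfix (14.9 to 11.2 FPKM) fell, and Sox6 fell from 2.40 to 1.69 FPKM. Nfia, the family member best known for switching on astrocyte genes, had 8.97 and 6.02 FPKM with a wide implied error (-0.57 ± 0.51, q = 0.617 per the authors' deposited table). Hes5, a Notch target that keeps progenitors undifferentiated, rose from 13.5 to 21.8 FPKM (0.69 ± 0.16, q = 0.000452) and Sox11 from 3.32 to 4.62 FPKM (0.48 ± 0.17, q = 0.0456) per the authors' deposited table. Id4, the most abundant gene of the list, had 56.2 and 49.7 FPKM and was not called. Of the 6 factors that fell, 5 belong to the class of the longest transcripts, which holds 9 of the 28, and Sox9 is the other. Of the 2 that rose, Hes5 (1273 nt) belongs to the shortest class and Sox11 (8311 nt) to the longest. The part of transcript length was not tested. Of the 8 called genes, 3 were alone in their locus, so fragments may have been divided between rows for the other 5.

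Fgfr3 encodes a receptor tyrosine kinase for FGFs that is found mainly in astrocytes in the adult brain. Its level was 38.0 FPKM after saline and 59.8 FPKM after cocaine. The log2 ratio of 0.66 ± 0.08 (95% interval 0.50 to 0.81) was called higher, with p and q listed as 0 in the authors' deposited table. A normal distribution gives that statistic a two-sided p of 5.74e-17. Its value after cocaine was 57.5% higher than after saline, and its statistic was 64th in size among the 14193 genes, whereas that of Sox9 was 518th. Fgfr3 was alone in its locus (mm9, chr5:34064373-34079716). Its longest transcript, of 4245 nt, lies in the same length class as that of Sox9, in which 6.88% of genes were called higher. Fgfr3 stood at 1.65 times the level of Sox9 after saline and at 3.95 times after cocaine, a difference of 1.26 ± 0.15 between their log2 ratios. That error treats the implied errors of the genes as independent, although both were read from the same pools. Fgfr3 and Sox9 were set side by side because they were the called members, so the difference is a description and not a test.

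**Figure D3:**
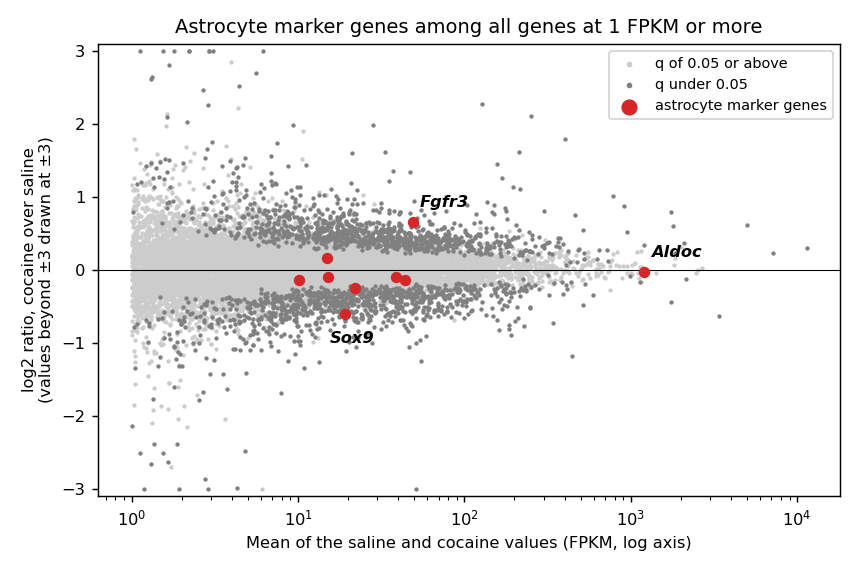
Log2 ratio of cocaine over saline against the mean FPKM (log axis) of 14193 genes with a mean of at least 1 FPKM; dark grey points are called, light grey points are not, and red points are the 9 astrocyte marker genes. Fgfr3 and Sox9 lie among the called genes above and below, and the other 7 lie within the band of uncalled genes near 0.

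Fgfr1, the relative of Fgfr3 most used by neurons, changed in the other direction, from 36.9 to 29.9 FPKM (log2 ratio -0.31 ± 0.08, q = 0.00382 per the authors' deposited table), and shares its locus with another row. A row for Fgfr2 was not used here. Of 23 FGF receptor, ligand and feedback genes with a mean of at least 1 FPKM, 1 rose, 2 fell and 20 were not called, a called share of 13%, near the 14.6% of all 14193 genes. Besides Fgfr1, the factor gene Etv1, which FGF signalling is known to induce, fell from 24.5 to 17.5 FPKM (-0.48 ± 0.16, q = 0.0282 per the authors' deposited table). No other gene of this list that FGF signalling is known to induce was called. Among them, Spry2 had 28.1 and 34.2 FPKM, Dusp6 9.93 and 11.6 FPKM and Etv5 39.6 and 31.4 FPKM, with q values of 0.107, 0.353 and 0.0678 in the authors' deposited table. The most abundant Fgf gene of the list by its mean, Fgf12, whose product acts inside the cell, had 43.2 and 44.7 FPKM.

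A longer list of astrocyte-enriched genes, none of them among the 9, had 48 genes with a mean of at least 1 FPKM. Of these 2 rose, 2 fell and 44 were not called, a called share of 8.33% against 14.6% of the 14193 genes. The gap is smaller at a q under 0.1, where 8 of the 48 (16.7%) pass against 18.5% of the 14193 genes. At 1.5-fold or more 1 of the 48 passes, against 4.5%. Most of the 48 are at least as abundant as the lowest of the 9. Of the 7111 genes at that level, 21.2% were called at a q under 0.05. The median log2 ratio of the 48 was 0.04, the same as that of all genes to 2 decimals. Their summed level was 10978.6 FPKM after saline and 11308.7 FPKM after cocaine. Apoe, which was not called, had 1785.7 and 2217.8 FPKM (0.31 ± 0.33). The difference of Apoe between the groups was larger than that of the sum. The glutamate transporter gene Slc1a2, which encodes GLT-1, fell from 426 to 258 FPKM (-0.72 ± 0.05, q listed as 0 per the authors' deposited table). It shares its locus with another row, and its longest transcript of 11595 nt belongs to the longest class. The other astrocyte glutamate transporter gene, Slc1a3, had 117 and 120 FPKM, and Glul, which encodes glutamine synthetase, 651 and 620 FPKM, neither called. Slc4a4, already named, was the other gene to fall. Dbi, which encodes an acyl-CoA-binding protein, rose from 139 to 191 FPKM (0.46 ± 0.09, q = 4.83e-06) and the phospholipase C gene Plcd4 from 6.94 to 10.003 FPKM (0.53 ± 0.14, q = 0.00168) per the authors' deposited table. The longest transcript of Dbi, of 660 nt, belongs to the shortest class, and that of Plcd4, of 4682 nt, to the second longest. Cst3, the most abundant gene of the list, had 2662.9 and 2720.5 FPKM. Of 13 genes of transmitter uptake and recycling with a mean of at least 1 FPKM, Slc1a2 was the single one called. It makes 7.69% of that list, against 14.6% of the 14193 genes.

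No gene of the 3 lists of reactive astrocyte genes with a mean of at least 1 FPKM was called. Of the 14193 genes 14.6% were called, a share that amounts to few calls in lists of 6, 7 and 2 genes. Of 13 genes shared by reactive states, 6 had a mean of at least 1 FPKM and 0 of these were called, with a median log2 ratio of 0.06. The ceruloplasmin gene Cp, at 2.25 and 3.05 FPKM, was the 1 gene of these with an unadjusted p under 0.05 in the authors' Cuffdiff test. Serpina3n, a reactive marker, had 2.21 and 2.09 FPKM, and Lcn2, another, was at 0.0523 and 0.113 FPKM with no test in the authors' deposited table. Below that mean, the chemokine gene Cxcl10 was called lower at 0.0278 and 0.0101 FPKM. Of 11 inflammation-associated reactive genes with a row, 7 had a mean of at least 1 FPKM and 0 were called (1, Srgn, at an unadjusted p under 0.05). Their median log2 ratio was 0.30, with 5 higher and 2 lower, against 0.04 for the 14193 genes. Srgn had 1.14 and 2.94 FPKM (log2 ratio 1.37 ± 0.58, q = 0.119 in the authors' deposited table). H2-D1 had 9.25 and 9.24 FPKM, and Fkbp5, which glucocorticoids induce, had 15.9 and 17.2 FPKM. Of 12 ischaemia-associated genes, 2 had a mean of at least 1 FPKM and 0 were called (1, S100a10, at an unadjusted p under 0.05). These were S100a10 (4.17 and 6.44 FPKM) and Tm4sf1 (1.34 and 2.01 FPKM), with q values of 0.216 and 0.281 in the authors' deposited table. Their median log2 ratio was 0.61.

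**Figure D4:**
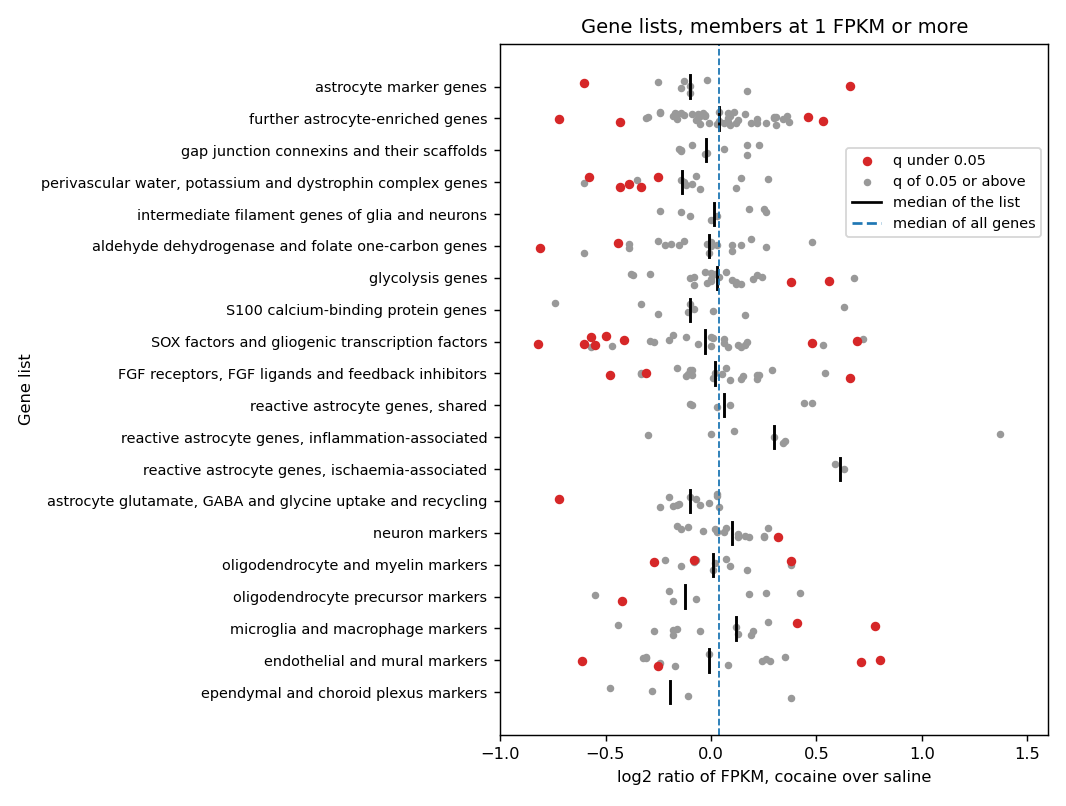
Log2 ratio of cocaine over saline for the members of 20 gene lists with a mean of at least 1 FPKM, with called genes in red, the median of each list as a black bar and the median of all genes (0.04) as a dashed line. Called genes lie to the left in the perivascular list (5 lower, 0 higher) and mostly to the left among the SOX and gliogenic factors (6 lower, 2 higher).

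The label of the tissue was checked by neuronal genes of the striatum, with Penk at 1737.2 and 1943.2 FPKM and Ppp1r1b, the DARPP-32 gene of striatal projection neurons, at 756 and 896 FPKM. Penk and Ppp1r1b do not tell the accumbens from other parts of the striatum. Summed marker levels after saline and after cocaine were 5488.5 and 6000.9 FPKM for 16 neuron markers (1 rose, 0 fell), 2368.7 and 2282.3 FPKM for 13 oligodendrocyte markers (1 rose, 2 fell) and 90.6 and 89.6 FPKM for 8 markers of their precursors (0 rose, 1 fell). They were 255 and 262 FPKM for 14 microglia markers (2 rose, 0 fell) and 178 and 187 FPKM for 15 endothelial and mural markers (2 rose, 2 fell), with calls at a mean of at least 1 FPKM. In this order, the called shares of the 5 lists were 6.25%, 23.1%, 12.5%, 15.4% and 26.7%, against 14.6% of the 14193 genes. None of these markers was listed at 0 in both groups. The called markers included Tac1 (higher), Mal (higher), Cnp and Mbp (lower), Cspg4 (lower), Tmem119 (higher), Vwf and Slco1a4 (higher), and Pecam1 and Vtn (lower) per the authors' deposited table. Their part in the values of the 9 astrocyte genes was not tested.

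**Figure D5:**
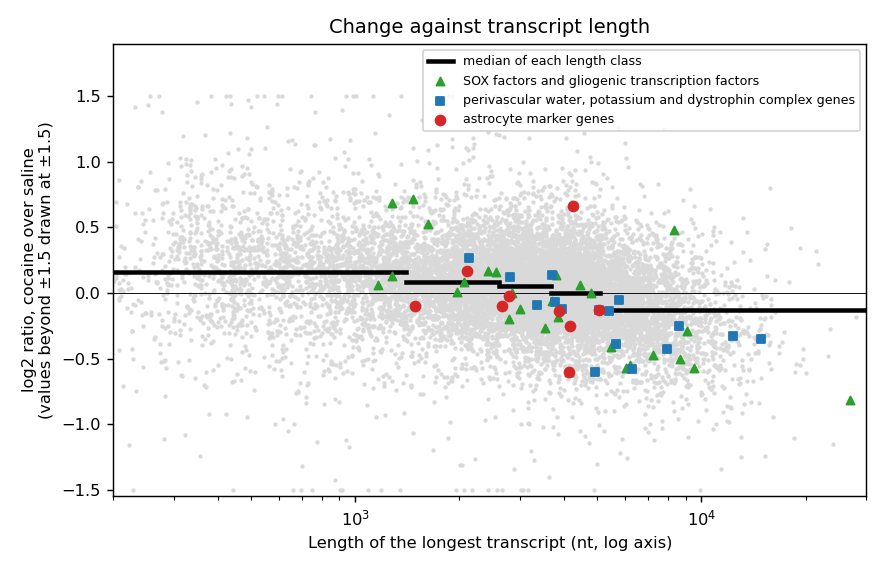
Log2 ratio of cocaine over saline against the length of the longest transcript (nt, log axis), with all genes in light grey, the median of each of 5 length classes as a black line, and 3 lists as coloured points. The medians go from 0.16 in the shortest class to -0.13 in the longest, and the 9 astrocyte marker genes (red) lie in the 3 middle classes.

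By transcript length the 9 genes lie between 1484 nt for S100b and 5054 nt for Aqp4, outside the shortest and the longest class. The classes that hold them had median log2 ratios of 0.08, 0.05 and 0.00. By GC content of the transcript, Aqp4 and Gja1 lie in the lowest of 5 classes, where the median log2 ratio was 0.17, and their own log2 ratios were -0.13 and -0.14. Fgfr3 is the single member in the highest GC class, where the median was 0.00.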

How the data were processed

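RNA of the accumbens was sequenced from 3 saline and 3 cocaine pools, grouped by sample title. Per the submitters' processing notes the tools were CASAVA, TopHat and Cuffdiff and the builds mm9 and NCBIM37. Not given in the sources used here are tool versions, settings and the annotation. The authors deposited 1 FPKM value per gene and group; the unit is taken from the Cuffdiff layout, per the file headers. The deposited p-value was used as it stands, and the deposited q and test statistic were treated as a score, since q reaches 1.12. The sign of the statistic was opposite to that of the ratio in 100% of the rows compared and was turned. Depth is unknown, and no count test was run. The planned fit for values per pool does not apply to a table of group values; the authors' test was used, as laid down for that case.

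Log2 ratios were computed without a pseudocount, and the implied standard error is the absolute log2 ratio over the absolute statistic. Of 35406 rows, 23479 had status OK. Lists used the 14193 symbols whose row of highest mean had status OK and at least 1 FPKM on average. Start positions were raised by 1: 21 of 26 mitochondrial rows alone in their locus then matched the reference annotation, and 0 before. The longest GENCODE vM21 transcript, found for 88.1% of symbols by exact name, gave length and GC content. The 9 genes and the 19 other lists were chosen with earlier results of these data known. Named were the 9 genes, fixed relatives, called list members (2 highest and 2 lowest where over 4) and the most abundant uncalled one. Dag1, Stat3, Nfic, Nfix, Sox6, Cxcl10 and the other genes outside that rule were chosen after their values were seen. Some genes that the rule names are not reported here. Alternatives were a q under 0.01 or 0.1, recomputed adjustment, at least 1.5-fold, rows alone in their locus, other FPKM minimums, pseudocounts of 1 and 0.1, centring, the mean, and summed rows. A simulation with normal noise of the size of the implied errors checked only a recomputed adjustment of p-values. It did not cover the deposited q, the list counts, the length classes or the motif search. Python 3.11.15, pandas 2.3.3, NumPy 2.4.6 and SciPy 1.17.1 were used.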

Additional observations from a re-analysis of the deposited data

How the results depend on the processing

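No paired analysis was possible because the table gives 1 value per group and none per pool, so the replicate numbers cannot be used; leaving out a pool could not be run for the same reason. Of the 9 astrocyte genes, the count of 2 called held at a q under 0.01 or 0.1, with recomputed adjustment, at 1.5-fold and for rows alone in their locus. In all 42 alternatives for single members the log2 ratio stayed within its implied error. Summed rows and rows alone in their locus could not move it, as each gene has 1 row. Small pseudocounts at these levels, and centring on a median of 0.04, could move it only a little. The count of all called genes, 2784, was 1266 at 1.5-fold and 1183 for rows alone in their locus. Outside the 9, the other lists held 32 called genes, each gene counted once, which became 21 at a q under 0.01, 8 at 1.5-fold and 17 for rows alone in their locus. The perivascular list went from 5 calls to 0 at 1.5-fold. The SOX and gliogenic list, Sox9 included, went from 8 calls to 5 at a q under 0.01, 3 at 1.5-fold and 3 for rows alone in their locus. Each of these settings removes genes by its construction. Of 114 alternative counts over the 19 lists, these 2 included, 32 moved by over 1.5 times. Of 114 alternative list medians or means, 0 moved by more than the median implied error of the list's genes. Unknown depth and the missing values per pool limit all errors given.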
